A study of Rattus norvegicus with 2 samples.

Results

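Collagens, laminins and integrins are the fibres, sheets and receptors by which lung cells are held in place. The genes were chosen by name: every probe set with exactly 1 gene symbol that matched a collagen chain (*Col*, a number, *a*, a number), a laminin chain (*Lama*, *Lamb* or *Lamc* with a digit) or a symbol beginning *Itga* or *Itgb*. This gave 112 probe sets for 77 genes, of 14217 genes in all: 41 collagen chains, 10 laminin chains, 22 integrin chains and 4 genes whose names fit but which encode no integrin chain. Total RNA of rat lung (*Rattus norvegicus*) was hybridised to 2 Affymetrix Rat Genome 230 2.0 arrays, 1 prepared by each of 2 experimenters, called experimenter 1 and experimenter 2. The study asked how reproducible global expression is. The labels name no treatment for either sample, and they leave out the strain, sex, age and number of animals and whether both arrays shared a lung or an RNA preparation.

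Values are log2 RMA values, so a step of 1 is a doubling of signal, and differences are experimenter 2 minus experimenter 1. Neither array has a replicate, so no value below carries an error or a p-value. A difference of at least 1.5-fold (0.585 on the log2 scale) was used as a fixed size, and each gene is represented by its brightest probe set unless stated. On the arrays of experimenters 1 and 2 the 31042 probe sets other than controls had medians of 6.32 and 6.28, lower quartiles of 4.42 and 4.37 and upper quartiles of 8.22 and 8.18. Genes by their brightest probe set lay higher, with medians of 7.59 and 7.57 over all 14217. Of these, 9558 had means at or above 6.31, the overall median of probe set means. Lung markers were bright on both, with *Sftpc*, the surfactant protein C gene, at 14.39 and 14.36 and the endothelial receptor *Tek* at 12.13 and 12.03. The gap between the 3' and 5' control probe sets, which widens as labelled RNA gets shorter, was 2.15 and 2.71 for *Actb*, 1.13 and 1.36 for *Hk1* and 0.298 and 0.261 for *Gapdh*. The part of RNA quality in the differences below was not tested.

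Collagens are made of 3 chains wound into a triple helix. Fibrillar collagens pack into the tensile fibres of the lung interstitium and vessel walls, whereas type IV collagen and the laminins, each a trimer of an alpha, a beta and a gamma chain, form the basement membranes on which epithelium and endothelium sit. In the alveolus these sheets lie fused between both cell layers and form part of the air-blood barrier. Integrins are pairs of an alpha and a beta chain that bind these proteins and link them to actin, and a few of them act on leukocytes and platelets.

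The upstream sequences of 3 type IV chains and 1 type I chain are shown: *Col4a1* and *Col4a2* for the start region they share, *Col4a5* and *Col1a2* as the brightest chains of types IV and I. *Col4a1* and *Col4a2*, whose products join in 1 trimer, are transcribed away from each other from starts with 76 bases between them. *Col1a2* lies on another chromosome than these. The sequences are from RefSeq, build GRCr8, and hold only bases before an annotated start. The *Col4a1*-*Col4a2* stretch is chr16:84885521-84885596 on the plus strand, from the *Col4a2* start to the *Col4a1* start. That of *Col1a2* is chr4:33518307-33518416, plus strand, and that of *Col4a5* is chrX:109907109-109907358, plus strand. The *Col1a2* stretch holds only the first 110 of the 250 bases before its start and ends short of that start. The distance from its boxes to the start is therefore longer than the printed bases show. The other stretches run up to their starts. Capitals mark a CCAAT box (CCAAT), a GC box (GGGCGG) or a TATA box (TATAAA) on either strand.

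Col4a1-Col4a2: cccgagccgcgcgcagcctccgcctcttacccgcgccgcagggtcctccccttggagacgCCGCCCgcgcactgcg

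Col1a2: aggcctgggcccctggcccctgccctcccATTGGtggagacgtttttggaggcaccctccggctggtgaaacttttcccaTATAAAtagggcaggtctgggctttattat

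Col4a5: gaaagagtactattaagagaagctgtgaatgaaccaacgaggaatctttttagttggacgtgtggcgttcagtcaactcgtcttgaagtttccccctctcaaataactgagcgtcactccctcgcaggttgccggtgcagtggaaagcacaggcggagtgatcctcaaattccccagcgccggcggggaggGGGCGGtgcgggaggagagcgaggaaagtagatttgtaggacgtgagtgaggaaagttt

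The stretch between *Col4a1* and *Col4a2* held a GC box and no TATA box, *Col1a2* held a reversed CCAAT box and a TATA box, and *Col4a5* held a GC box. Promoter windows of 300 bases (250 before the start, 50 after) were found for 60 of the 77 genes. *Col1a1* and *Col3a1* were among those without a window, so their motifs were not looked at. A GC box was in 9 of the 14 basement membrane chains with a window, in 6 of the 8 fibrillar chains and in 36.0% of the 27457 genes of the table. It was also in 8 of the 15 integrin chains with a window, and in 32 of the 60 genes together. *Col4a1* and *Col4a2* both count among the 9, though their windows share the printed stretch and its GC box. A TATA box was in *Lama4* alone among those 14, in *Col1a2* alone among those 8 and in 15.3% of all genes. A CCAAT box was in 5 of 14 and 3 of 8, against 39.6% of all genes. None of the 3 motifs overlaps another in the printed stretches, and a match of letters describes the window only.

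Levels of different genes are not directly comparable on these arrays, because each probe set has its own affinity and its own place along the transcript. The order below is therefore one of signal and not of RNA molecules. Where a gene had several probe sets this was measurable: 26 of the 77 genes did, and the mean levels of a gene's probe sets spanned a median of 2.15, with a span over 2 in 13. *Itga6* spanned 5.55, *Col6a3* 5.55 and *Lama5*, the laminin alpha 5 chain, 5.44, whereas *Col1a1* spanned 0.0661 and *Col4a1* 0.239. A chain can thus move far in the order with the choice of probe set.

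**Figure D1:**
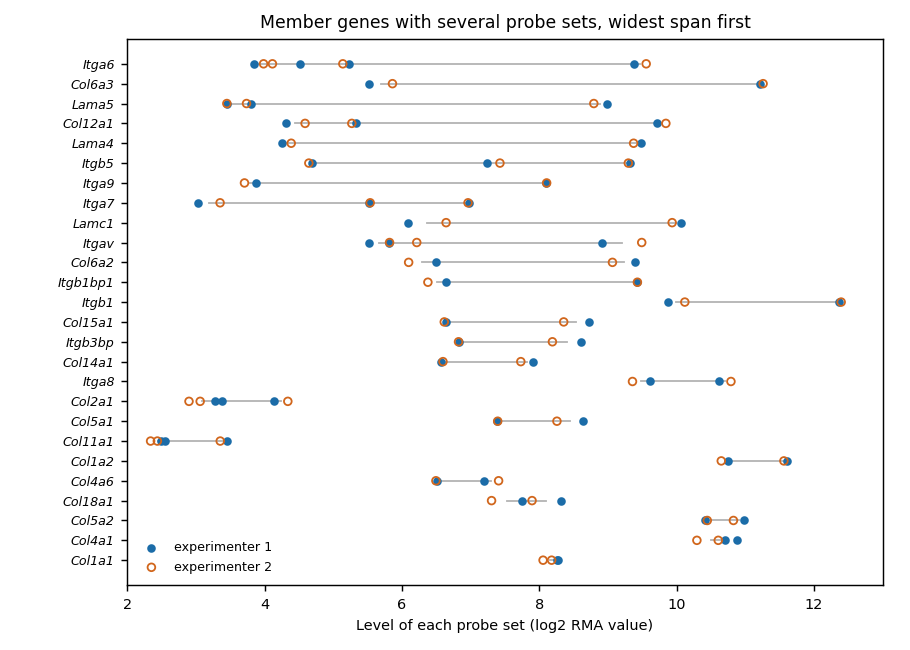
Level of every probe set (log2 RMA value, horizontal axis) for the 26 genes with at least 2 probe sets, on the array of experimenter 1 (filled) and experimenter 2 (open), joined by a grey line over the span of means. The arrays lie close together at each probe set while probe sets of one gene lie up to 5.55 apart, as for *Itga6*.

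The brightest of the 77 genes was *Col3a1*, the single chain of type III collagen, at 12.69 on the array of experimenter 1 and 12.67 on that of experimenter 2, above 99.5% of probe sets on both. It was followed by *Itgb1*, the beta chain shared by most matrix-binding integrins, at 12.37 and 12.39, and by *Col1a2*, the alpha 2 chain of type I collagen, at 11.60 and 11.56. The ranges of these 3 genes over both arrays did not overlap, so their order was the same for both experimenters. Next by mean were *Col4a5* of type IV collagen (11.34 and 11.25) and *Col6a3* of the beaded type VI filaments (11.21 and 11.26), whose ranges did overlap. Of the 76 pairs of neighbours in the order, 54 overlapped and 22 were separate. The top 10 of both arrays shared 9 genes, the median shift in rank was 1 and the largest was 6. At the other end, *Col25a1*, a transmembrane collagen, measured 2.60 and 2.84, *Col9a1* 3.19 and 3.14 and *Col11a1* 3.45 and 3.35, all under the lower quartile. RMA gives no detection calls, so these low values have no stated background limit. In whole lung, fewer cells of a type and less RNA per cell cannot be told apart.

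**Figure D2:**
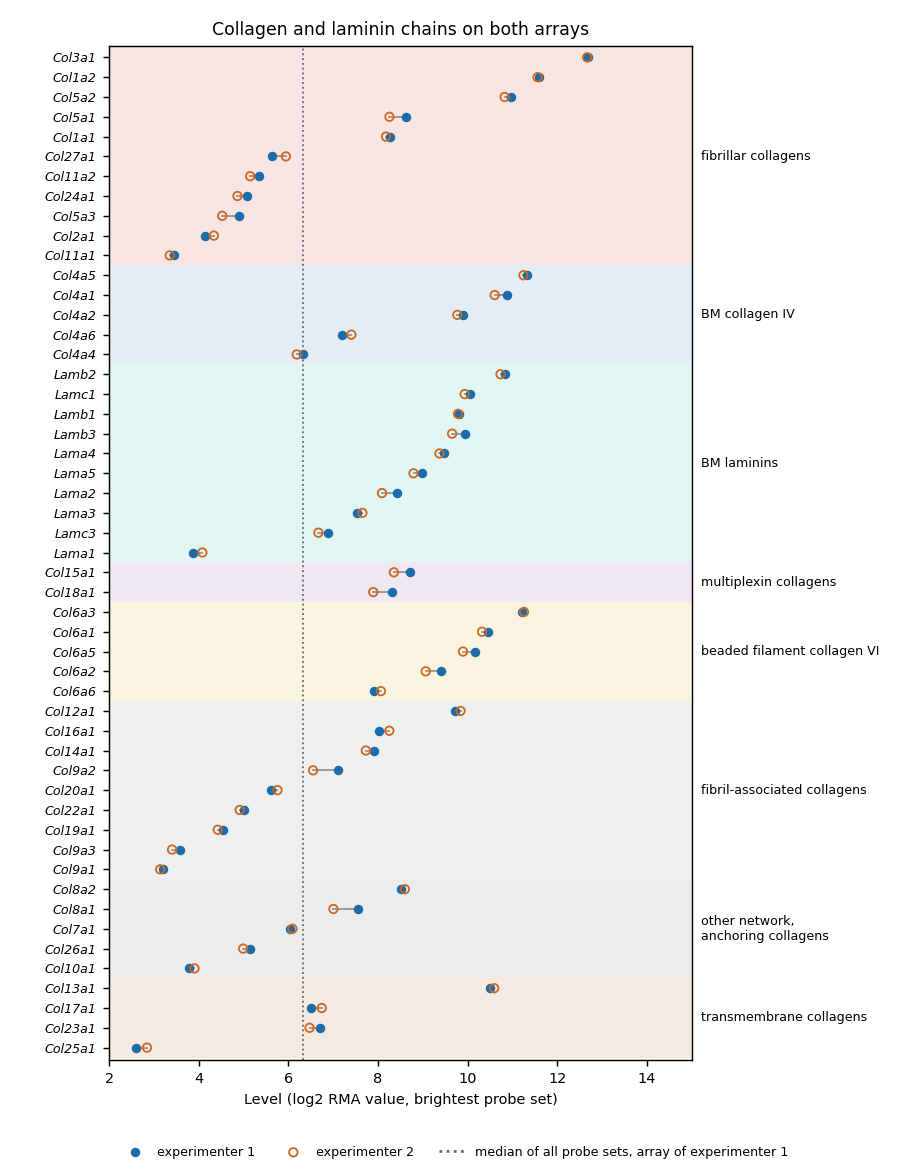
Level of each collagen and laminin chain (log2 RMA value, brightest probe set) for experimenter 1 (filled) and experimenter 2 (open), grouped by class, with BM for basement membrane and a dotted line at 6.32, the median of all probe sets on the array of experimenter 1. Fibrillar chains run from 12.69 down to 3.35, while 13 of the 15 basement membrane chains have means above the overall median, as have 9558 of all 14217 genes.

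Fibrillar collagens were split into bright and dim chains. Of 11 chains, 4 lay above the upper quartile of probe sets on both arrays and 2 below the lower quartile on both. The share of all genes beyond these quartiles was not counted. The bright ones besides *Col3a1* and *Col1a2* were the type V chains *Col5a2* (10.97 and 10.83), which takes part in starting fibrils, and *Col5a1* (8.63 and 8.26). *Col1a1*, which supplies the other chain of type I collagen, measured 8.27 and 8.18 by one probe set and 8.26 and 8.05 by the other, well below *Col1a2* by its brightest probe set and by its second (10.75 and 10.65). Because probe affinity differs, this gap does not give the ratio of the type I chains.

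The dim fibrillar chains include those best known from cartilage. *Col2a1*, the chain of type II collagen, measured 4.14 and 4.34, *Col11a1* 3.45 and 3.35 and *Col11a2* 5.34 and 5.15. *Col5a3* measured 4.90 and 4.52, *Col24a1* 5.07 and 4.86 and *Col27a1* 5.64 and 5.94, so all 6 lay below the array medians on both arrays. The cartilage partners of type II collagen lay low as well, with *Col9a1* at 3.19 and 3.14 and *Col9a3* at 3.59 and 3.40, while *Col9a2* was the exception at 7.10 and 6.55. Among 6 measured cartilage markers of 8 listed, mean levels ran from 3.08 for *Cnmd*, chondromodulin, to 4.98 for *Matn1*, matrilin, and their summed linear signal was 134 and 117. The cartilage content of the samples was not tested further.

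Basement membrane chains were more evenly bright. Of 15 chains, 9 lay above the same upper quartile of probe sets on both arrays and *Lama1* alone below the lower quartile on both. *Col4a1* (10.88 and 10.60) and *Col4a2* (9.90 and 9.77) encode the ubiquitous type IV trimer, and *Col4a5* (11.34 and 11.25) a chain of the specialised trimer also found in alveolar and glomerular membranes. The partner *Col4a4* measured 6.32 and 6.19, next to the array medians, and *Col4a6*, whose gene lies head to head with *Col4a5* with 1414 bases between the starts, measured 7.19 and 7.41. The third partner *Col4a3* was not analysed here.

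Among the laminin chains, *Lamb2*, *Lamc1*, *Lamb3* and *Lamb1* gave the most signal. *Lamb2*, the beta 2 chain, measured 10.83 and 10.73, *Lamc1*, the gamma 1 chain shared by most laminins, 10.06 and 9.93, and *Lamb1* 9.82 and 9.79. *Lama4*, the alpha chain of endothelial basement membranes, measured 9.48 and 9.37, *Lama5*, that of epithelial and vascular ones, 8.99 and 8.79, and *Lama2*, best known from muscle, 8.42 and 8.09. By brightest probe sets, all alpha chains thus gave less signal than *Lamb1*, *Lamb2* and *Lamc1* on both arrays. The second probe set of *Lamc1* measured 6.09 and 6.64, below those values of *Lama4*, *Lama5* and *Lama2*. The epithelial anchoring laminin is represented by *Lamb3* (9.94 and 9.65) and *Lama3* (7.54 and 7.65). *Lamc3* measured 6.88 and 6.67 and *Lama1*, the embryonic alpha chain, 3.87 and 4.08.

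Compared as classes, the median level of the 15 basement membrane chains was 9.48 and 9.37, and that of the 11 fibrillar chains 5.64 and 5.94. The gap in medians was 3.84 for experimenter 1 and 3.43 for experimenter 2, and by class means it was 1.43 and 1.42. The direction turned when only chains whose mean reached the overall median level were kept, to -1.16 and -1.17, since that left 13 basement membrane chains and the 5 bright fibrillar ones. The brightest chain of each class showed the same turn, with *Col3a1* above *Col4a5* on both arrays. With 1 array each this comparison has no test.

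All 5 measured type VI chains had means above the overall median, as had 9558 of all 14217 genes. *Col6a1* measured 10.45 and 10.32, *Col6a5* 10.17 and 9.90, *Col6a2* 9.40 and 9.06 and *Col6a6* 7.92 and 8.07. Of the fibril-associated chains, *Col12a1* (9.72 and 9.84), *Col16a1* (8.01 and 8.25) and *Col14a1* (7.91 and 7.73) were the brightest, and *Col20a1*, *Col22a1* and *Col19a1* had means from 5.68 down to 4.48. *Col13a1*, a transmembrane collagen of cell adhesion sites, was the brightest of its class at 10.51 and 10.59, above *Col17a1* (6.50 and 6.75), the hemidesmosome collagen, and *Col23a1* (6.70 and 6.47). *Col8a2* (8.51 and 8.60) and *Col8a1* (7.55 and 7.004), which form hexagonal networks, were above *Col7a1* (6.04 and 6.09), the anchoring fibril collagen, and *Col26a1* and *Col10a1* had means of 5.06 and 3.85. *Col15a1* (8.72 and 8.35) and *Col18a1* (8.31 and 7.89), the latter the source of endostatin, lie at the edge of basement membranes.

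Of the integrin beta chains, *Itgb1* was far above the rest by its brightest probe set. Its other probe set measured 9.87 and 10.12, below *Itgb2* on both arrays. *Itgb2*, the beta chain of leukocyte integrins, measured 10.52 and 10.27, *Itgb6*, the epithelial partner of alpha V that releases active TGF-beta, 9.26 and 9.64, and *Itgb5* 9.31 and 9.30. *Itgb3*, which pairs with alpha V and with the platelet alpha IIb chain, measured 8.42 and 8.72, *Itgb7* 7.71 and 7.83 and *Itgb4*, the hemidesmosome chain that pairs with alpha 6, 6.84 and 6.33. All 7 measured beta chains lay above the array medians on both arrays by their brightest probe sets. Among all 14217 genes, 9558 had means at or above the overall median.

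**Figure D3:**
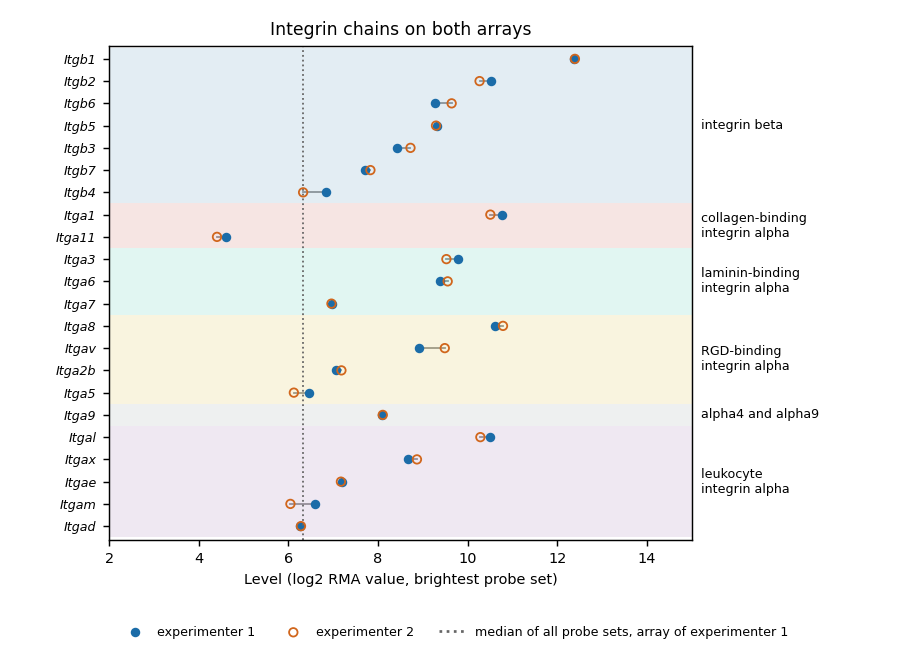
Level of each integrin chain (log2 RMA value, brightest probe set) for experimenter 1 (filled) and experimenter 2 (open), grouped by the ligand or cell the alpha chains are known for, with a dotted line at the median of all probe sets on the array of experimenter 1. *Itgb1* lies at 12.37 and 12.39, and *Itgav* shows the widest gap between the arrays, 8.91 against 9.49.

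The alpha chains that bind matrix were spread widely in signal. *Itga8*, an RGD-binding chain of lung fibroblasts and smooth muscle, measured 10.62 and 10.79, and *Itga1*, a collagen receptor chain, 10.78 and 10.51, with overlapping ranges. The other measured collagen receptor chain, *Itga11*, was low at 4.61 and 4.41. The laminin receptor chains *Itga3* (9.78 and 9.53) and *Itga6* (9.37 and 9.56) also overlapped, with *Itga7*, known from muscle, below them at 6.97 and 6.96. *Itgav* measured 8.91 and 9.49, *Itga9* 8.10 and 8.11, *Itga2b*, the platelet chain, 7.07 and 7.18 and *Itga5*, the fibronectin receptor chain, 6.45 and 6.12.

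Leukocyte alpha chains were led by *Itgal*, the LFA-1 chain of lymphocytes, at 10.51 and 10.28, beside its partner *Itgb2* at 10.52 and 10.27. *Itgax*, the CD11c chain of alveolar macrophages and dendritic cells, measured 8.66 and 8.87, *Itgae* 7.19 and 7.17, *Itgam*, the CD11b chain of myeloid cells, 6.59 and 6.05 and *Itgad* 6.27 and 6.28. *Itgam*, *Itgax* and *Itgad* are neighbouring genes, and on these arrays *Itgam* was lower and *Itgax* higher for experimenter 2. Of 8 listed leukocyte markers 7 were measured, and 6 were lower for experimenter 2, where 58.7% of all genes were. These markers had a median difference of -0.16, against -0.049 over all genes, and summed linear signals of 29930 and 29145. Their part in the values of *Itgal* and *Itgb2* was not tested.

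Between the arrays, 0 of the 77 genes differed by 1.5-fold or more, where 3.24% of all 14217 genes did (1.93% higher and 1.31% lower for experimenter 2) and 0.274% reached 2-fold. None of their 112 probe sets did so either, where 4.17% of all probe sets with 1 symbol did. The gene nearest the threshold was *Itgav*, at 1.498-fold higher for experimenter 2, followed by *Col9a2* (1.47-fold), *Col8a1* (1.46-fold), *Itgam* (1.46-fold) and *Itgb4* (1.43-fold), all 4 lower for experimenter 2. After centring the arrays on their medians *Itgav* was 1.53-fold higher and passed the threshold, so the count of 0 rests on a margin smaller than the offset between the arrays. At 1.3-fold, a size added after the data were seen, 2 genes were higher for experimenter 2 (2.6%, against 5.9% of all genes) and 8 were lower (10.4%, against 7.22%). Together these are 10 of 77 genes, against 13.1% of all genes.

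The median difference over the 77 genes was -0.093, against -0.049 over all genes. With second probe sets that order turned, at -0.039 for the 26 genes that have one and -0.076 for all genes with one. By the brightest probe set, 48 genes (62.3%) were lower for experimenter 2, where 58.7% of all genes were. The SD of the difference was 0.24 for the 77 and 0.26 for all genes, a spread over genes and not over replicates. Collagens were lower in 27 of 41, laminins in 8 of 10 and integrin chains in 11 of 22. Basement membrane chains had a median difference of -0.13 with 12 of 15 lower, and fibrillar chains -0.095 with 9 of 11 lower. With second probe sets these medians were -0.017 for 5 basement membrane chains, above the -0.076 of all genes, and -0.078 for 6 fibrillar chains, level with it.

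**Figure D4:**
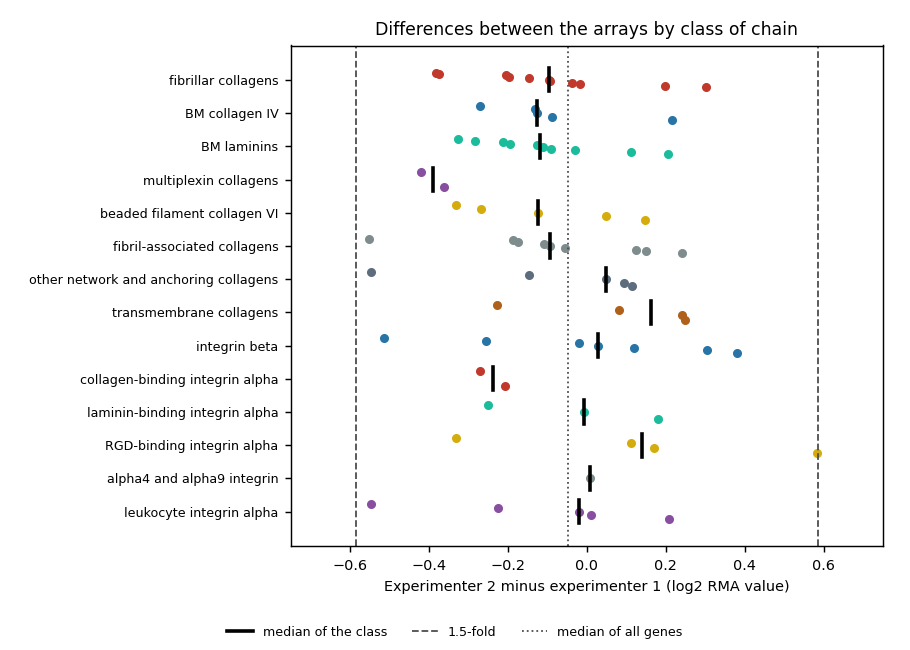
Difference between the arrays (experimenter 2 minus experimenter 1, log2 RMA value) for each chain, by class, with the class median as a bar, the median of all genes (-0.049) dotted and 1.5-fold dashed. All points lie inside the dashed lines, and *Itgav* at 0.58 lies at the edge.

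At 1.3-fold, the size added after the data were seen, 2 of the 77 genes were higher for experimenter 2. That is 2.6%, a smaller share than the 5.9% of all genes. The 2 genes encode chains of a known pair, the alpha V beta 6 integrin. *Itgav* was higher by all 3 of its probe sets, at 8.91 and 9.49, 5.81 and 6.21, and 5.51 and 5.82. *Itgb6*, with 1 probe set, measured 9.26 and 9.64, which at 1.302-fold only just reached that size. The other beta partners of alpha V measured here were *Itgb3*, 1.24-fold higher, and *Itgb5*, with differences of -0.019 for its brightest and 0.19 for its next probe set. Of the 8 listed markers of lung epithelium, where *Itgb6* is known to be expressed, 5 were higher for experimenter 2, where 5842 of all 14217 genes were. These markers had summed linear signals of 81224 and 84883, and their part in the values of *Itgav* and *Itgb6* was not tested.

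Of the 41 collagens, 4 were lower for experimenter 2 by 1.3-fold or more, where 7.22% of all genes were, and they made up 4 of the 8 genes. *Col9a2* of the fibril-associated class measured 7.10 and 6.55, *Col8a1* of the network collagens 7.55 and 7.004, the multiplexin *Col18a1* 8.31 and 7.89 and the fibrillar chain *Col5a3* 4.90 and 4.52. They come from 4 classes, and because they were picked by size, the other chains of each class had to be higher or nearer to 0. Of those, the fibrillar chain *Col5a1* was 1.297-fold lower and the other multiplexin *Col15a1* 1.29-fold lower (-0.36), both just under that size. The integrins were *Itgam* and *Itgb4*. The remaining genes encode no integrin chain: *Itgb1bp2*, the muscle chaperone melusin, measured 5.62 and 5.16, and *Itgb3bp*, a centromere protein, 8.61 and 8.19 by a probe set shared between transcripts, while its other probe set, at 6.83 and 6.82, differed by only -0.0033. Also matched by name alone were *Itgb1bp1*, which binds the tail of the beta 1 chain, at 9.42 and 9.43, and *Itgbl1*, at 5.001 and 5.02. Smooth muscle markers were lower in 5 of 6, where 58.7% of all genes were, with summed linear signals of 7075 and 6473. Their part in the value of *Itgb1bp2* was not tested.

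Second probe sets repeated some differences and not others. Of the 26 genes with at least 2 probe sets, 12 had the same sign by their brightest and second probe sets, beside 53.3% of the 4525 genes of the array with at least 2. *Col18a1* differed by -0.42 and -0.44, *Col6a2* by -0.33 and -0.39 and *Col4a1* by -0.27 and -0.41, so each was lower by both. *Col5a1* differed by -0.38 and 0.0052 and *Col15a1* by -0.36 and -0.027, where the second probe set showed next to nothing. *Lamc1* turned, at -0.13 by its brightest and 0.55 by its second probe set (6.09 and 6.64), and so did *Itga8* (0.17 and -0.25), *Itga6* (0.18 and -0.093) and *Col2a1* (0.20 and -0.32).

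Chains that assemble together did not always differ alike. The adjacent pair *Col4a2* and *Col4a1* had differences of -0.13 and -0.27, and the adjacent pair *Col6a1* and *Col6a2* had -0.12 and -0.33, while their partner *Col6a3* was at 0.049. The type V partners *Col5a1* and *Col5a2* differed by -0.38 and -0.15 with their brightest probe sets and by 0.0052 and 0.034 with their second. *Col3a1*, which adjoins *Col5a2* on the chromosome but supplies another collagen type, differed by -0.018. *Itgb4* was at -0.51, while its hemidesmosome partner *Itga6* was at 0.18 by its brightest probe set and at -0.093, -0.40 and 0.14 by its dimmer ones. For *Itgal* and *Itgb2* the differences were -0.23 and -0.26. Each of these is under 1.5-fold.

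Genes that modify collagen, bind basement membranes or act with integrins were followed by 3 lists. For comparison, the median difference over all genes was -0.049, with 58.7% lower for experimenter 2 and 3.24% past 1.5-fold either way. Of 26 listed collagen modification and processing genes 20 were measured, with a median difference of -0.074, 14 lower and 0 past 1.5-fold. *Ppib*, a prolyl isomerase of procollagen folding, measured 11.61 and 11.44 and *P4hb*, the beta subunit of prolyl 4-hydroxylase, 11.08 and 11.31. Of 11 basement membrane partners 10 were measured, with a median of -0.15 and 7 lower, led by *Sparc*, a collagen-binding matricellular protein, at 13.22 and 13.16 and *Dag1*, dystroglycan, at 11.20 and 11.27. *Smoc1*, a secreted calcium-binding protein, was the only gene of these 3 lists past 1.5-fold, 1.72-fold higher for experimenter 2 at low levels of 4.17 and 4.96. Of 21 integrin adaptors 20 were measured, with a median of 0.0068, 11 higher and 0 past 1.5-fold. *Fermt2*, kindlin-2, which activates integrins, measured 11.80 and 11.92, and *Cd151*, a tetraspanin bound to laminin-binding integrins, 11.29 and 11.56.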

How the data were processed

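The deposited values are log2 RMA values, 1 per probe set, which the authors computed by robust multi-array average (RMA), per the submitters' processing notes. For its version, the arrays normalized together and the log base the sources used here give nothing, and base 2 was taken from the range. RMA forces arrays to a common distribution, which hides differences in total RNA. Of 31042 probe sets besides 57 controls, 20826 had 1 symbol in the platform annotation. Symbols were updated by Entrez identifier, which changed 0 of the 112 used here, and the brightest probe set by mean stood for a gene. Without replicate arrays nothing was tested, and counts and medians stand beside those of all genes. Of 83 listed chains, 10 were not analysed here, among them *Col4a3*, *Col6a4*, *Itga2*, *Itga4* and *Itgb8*. Genes, lists and the naming rule (every fibrillar, basement membrane and integrin chain, the 3 brightest of other classes, the 2 brightest of each partner list, any gene past 1.5-fold) were chosen with earlier results of these data known. Other genes were named after their values were seen. The 1.3-fold size replaced a slightly smaller one whose counts had also been seen. Median differences of marker lists were 0.065 for lung epithelium, -0.093 for endothelium, 0.031 for fibroblasts, -0.072 for smooth muscle, -0.025 for platelets and -0.24 for cartilage. Python 3.11.15, numpy 2.4.6, pandas 2.3.3, statsmodels 0.14.6 and matplotlib 3.10.9 were used, and the counting was tested on simulated data.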

Additional observations from a re-analysis of the deposited data

How the results depend on the processing

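No paired analysis was possible because there is a single array for each experimenter, and no array could be left out. A median was taken as moved when it shifted by more than 0.1. The count of genes past 1.5-fold was 0; it became 1 (*Itgav*, 1.53-fold to 1.55-fold higher) under median centring, loess (fraction 0.3) and quantile normalization, and 10 at 1.3-fold, an alternative chosen after seeing the data. It was 0 for averaged probe sets, for second probe sets, for genes above the overall median level, and at 2-fold. The gap between basement membrane and fibrillar medians, 3.84 and 3.43, was 2.43 and 2.15 for averaged probe sets, 1.43 and 1.42 by class means, 3.34 and 2.85 with multiplexins added, and -1.16 and -1.17 with chains at or above the median level, which drops 2 basement membrane and 6 fibrillar chains. The median difference of basement membrane chains moved to -0.017 with second probe sets, which 5 of the 15 have; that of all genes was then -0.076, and those of fibrillar chains and of the 26 genes with a second probe set were -0.078 and -0.039. Under the other alternatives it ran from -0.13 to -0.079, that of fibrillar chains from -0.15 to -0.037 and that of the chosen genes from -0.093 to -0.043. The scalings turned the sign of 4 or 5 of the 77 genes, each at most 0.056 apart before, and left 43 or 44 lower. Low signal limits the dim chains, since no detection calls were used here.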
